A study of Homo sapiens with 6 samples.

Results

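Translation initiation factors are proteins that bring the small ribosomal subunit, the initiator tRNA and the messenger RNA together, and their genes were compared here between oncospheres and monolayer cultures of MDA231-LM2 breast cancer cells. A gene was a member when its platform symbol began with EIF but not with EIF2AK, which excluded the kinases that phosphorylate eIF2. The rule used names and no measured value, although the members were chosen with earlier results of these data known. It found 47 of the 19775 genes measured. Each gene was read from 1 probe set, the brightest over the 6 arrays among those that carried its symbol alone, and its other probe sets served as a check. Of the 47, 2 were noncoding RNAs that lie beside an initiation factor gene (EIF1B-AS1 and EIF3J-DT), and 1, EIF1AY, is Y-linked and is counted among the uncalled genes without a level.

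MDA231-LM2 is a derivative of the estrogen receptor-negative cell line MDA-MB-231 with high metastatic ability in the lung, and all cultures carried this 1 background. The monolayer group (n = 3) grew attached in DMEM GlutaMAX with 10% fetal bovine serum and was taken 48 h after fresh medium had been given. The oncosphere group (n = 3) floated for 4 days on ultra-low adhesive plates in HuMEC medium with B27 (2%), bFGF at 10 ng/ml, EGF at 20 ng/ml and 5 μg/ml insulin. Attachment, serum, growth factors and time in culture therefore changed together and cannot be told apart. The study asked how stress signaling through JNK relates to stem cell properties, and the comparison asked which transcripts accompany sphere growth.

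In textbook terms, eIF2 carries the initiator tRNA to the small subunit and is recharged with GTP by eIF2B, while eIF1, eIF1A, eIF3 and eIF5 help the complex to scan for a start codon. The cap of the messenger is bound by eIF4E, which joins the scaffold eIF4G and the helicase eIF4A in a complex named eIF4F, and the 4E-BP proteins block that joining unless mTORC1 phosphorylates them. eIF5B then joins the large subunit, and eIF5A, which carries the modified residue hypusine, assists peptide bond formation during elongation.

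Values below are intensities, the brightness of a probe set on a linear scale, for the arrays in the order of replicates 1, 2 and 3. A log2 change is oncospheres minus monolayer, and a gene was called higher or lower at an adjusted p below 0.05 in limma's moderated test, adjusted by Benjamini-Hochberg over all probe sets tested. All replicates were cultures of this 1 line, so that the p-values cover the variation among such cultures and no more. Intensities of different probe sets cannot be ranked against each other, and in a bulk culture fewer cells that carry a transcript and less of it per cell cannot be told apart. Arrays within a group correlated at 0.993 to 0.996 across probe sets and arrays of different groups at 0.966 to 0.973, and the second principal component (6.89% of the variance) set oncosphere array 2 apart. Among the markers of the line, VIM lay between 19915 and 21040 on all 6 arrays, whereas ESR1 (118 to 144) and PGR (64.5 to 81.6) lay near or below 113.5, the median of all probe sets. CD44, ERBB2 and CDH1 were not called either (log2 changes 0.32, 0.22 and -0.18), but the epithelial markers KRT18 and EPCAM fell by 0.64 (adjusted p = 0.000161) and 0.34 (adjusted p = 0.0145). By level, CDH1 (66.3 to 82.2) lay below the median of all probe sets. ERBB2 (336 to 439) and EPCAM (392 to 574) lay above it on every array, although low levels had been expected in this line. Of 6 measured markers of leukocytes, endothelium and stroma, 1 was called higher (PECAM1, log2 change 1.58) and none lower. Their summed intensity ran from 702 to 722 in monolayer and from 961 to 1184 in oncospheres. Within that sum, PECAM1 had a mean of 188 in monolayer and 568 in oncospheres, and none of the others was called. No array was at 0 for any of these markers, since the lowest deposited intensity was 48.0, and their part in the results below was not tested.

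Initiation factor transcripts were mostly lower in oncospheres. Of the 47 genes, 25 (53.2%) were called lower, whereas 17.5% of all genes were, and 2 (4.26%) were called higher, whereas 17.3% of all genes were. The median log2 change of the members was -0.24, against -0.02 over all 19775 genes. A fall of at least 1.5-fold was called for 8 members (17.0%, against 5.60% of all genes), and a rise of that size for 1 (2.13%, against 7.23%). All 3 oncosphere arrays lay below all 3 monolayer arrays in 30 members (63.8%, against 24.6% of all genes) and above them in 3 (6.38%, against 22.3%).

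Most members were read from bright probe sets, which are called more often than dim ones. When probe sets below the median intensity in both groups were left out, 44 members remained and 25 of them were called lower, beside 27.5% of the 12922 genes that remained. The same 2 members were the only ones called higher, beside 26.9% of those genes. No such background was made for changes of 1.5-fold or for arrays that did not overlap. Those shares stand only beside all genes, dim ones included. Over the 44 protein-coding genes other than EIF1AY the median log2 change was -0.24 as well. The falls were modest, with a median size of 0.41 on the log2 scale among the 25 genes that fell. The calls of EIF2B2, EIF2D, EIF3F, EIF3K and EIF5 rested on small falls (0.22 to 0.34) and were each lost when single arrays were left out. Oncosphere array 2 was the oncosphere array nearest to the monolayer mean in 15 of the 25 genes that fell. The same count over all genes was not made. Across all probe sets this array also lay nearest to monolayer on the first principal component (79.09% of the variance). It stood at 37.1, the other oncosphere arrays at 47.85 and 45.74, and monolayer at -45.11 to -41.72, so the position is not particular to the members.

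**Figure D1:**
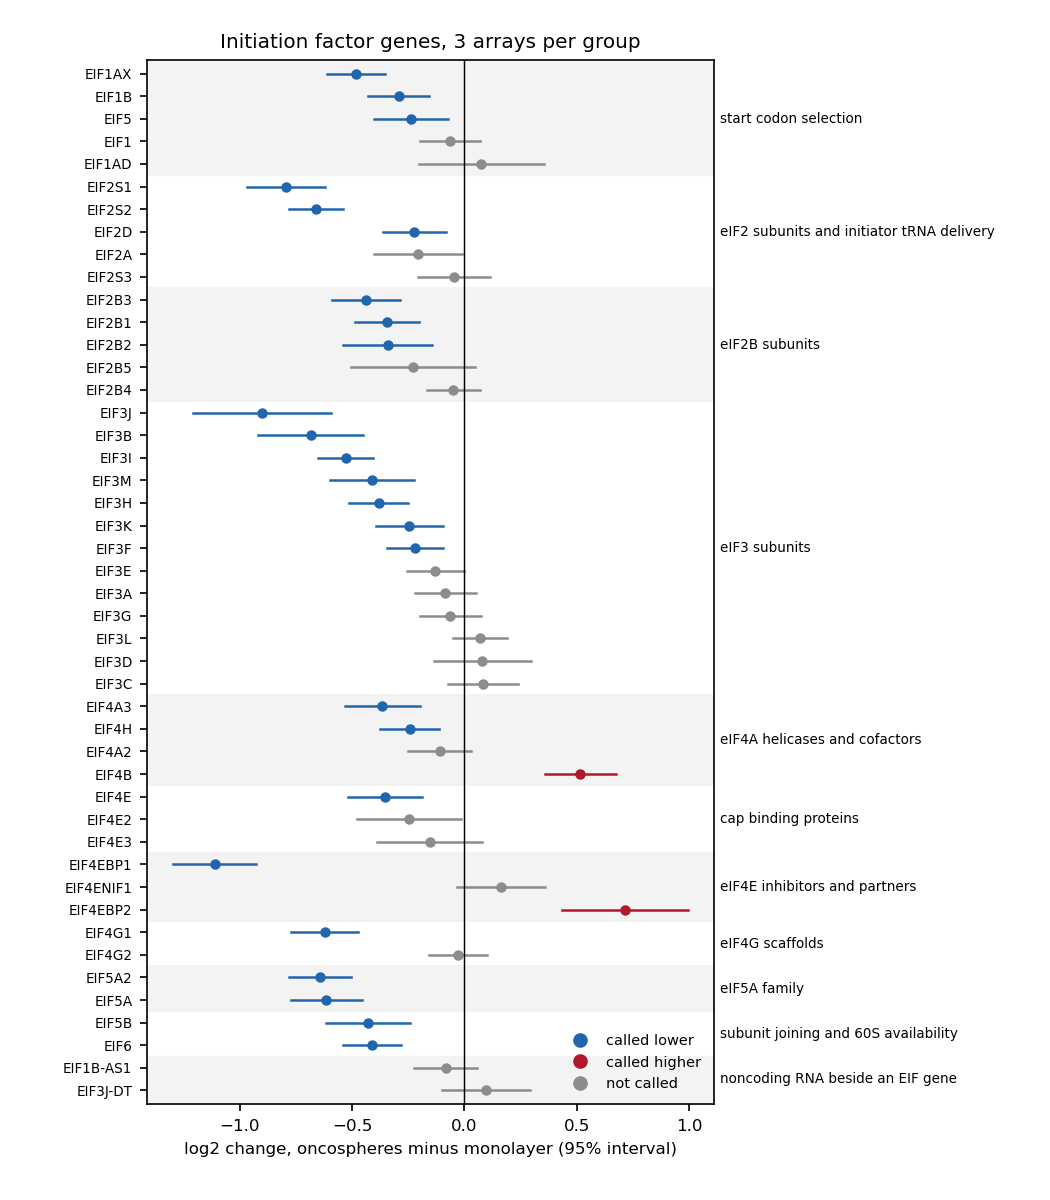
The log2 change of 46 initiation factor genes (x axis, oncospheres minus monolayer) is drawn by role, with points for the estimates and lines for 95% intervals from 3 arrays per group. Blue genes were called lower, red genes higher and gray genes neither, and only EIF4EBP2 and EIF4B are red.

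The count depended on the kind of probe set. Names that end in _s_at or _x_at mark probe sets that can match several transcripts or similar sequences of other genes. Above the median intensity the members had 103 probe sets with a single symbol, of which 52 (50.5%) were called lower and 8 (7.77%) higher, against 26.4% and 23.8% of all such probe sets. Of the 47 with _s_at or _x_at names, 36 (76.6%) were lower and 0 higher, against 29.1% and 22.3% of all probe sets so named. Of the 56 with other names, 16 (28.6%) were lower and 8 (14.3%) higher, against 24.6% and 24.8%. The share called lower among the latter was thus close to the background.

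At the level of genes, leaving out _s_at and _x_at probe sets left 40 members. Then 13 of the 40 were called lower and 4 higher, where 14.8% and 15.8% of the 17098 genes measured in that way were called. The median log2 change of the 40 was -0.07. Their share called lower thus stayed above that of all genes, with no filter on intensity in this comparison. Of the 25 genes that had fallen, 19 were still measured, and 13 of these stayed lower, 5 were not called and 1 (EIF5) was higher. The other 6 (EIF2D, EIF3J, EIF4G1, EIF4H, EIF5A and EIF6) had no probe set with another name.

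**Figure D2:**
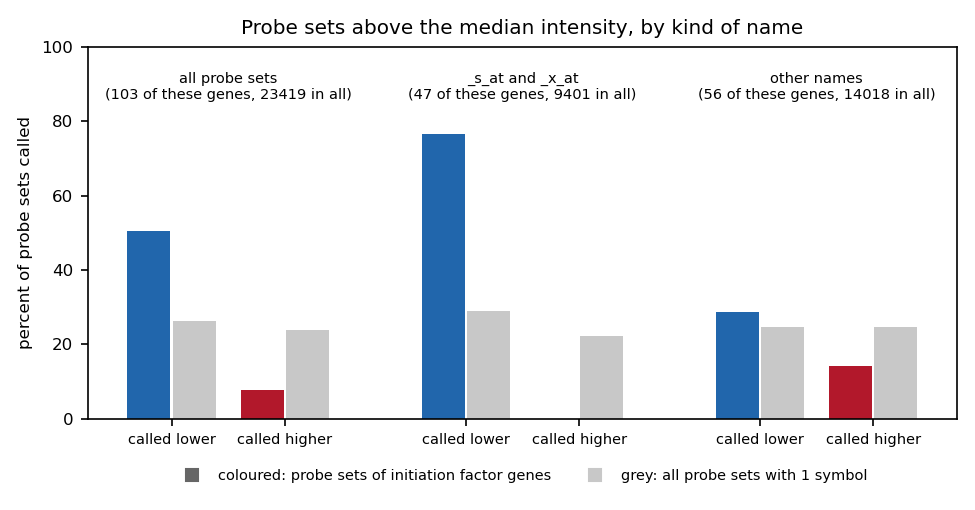
The percentage of probe sets called (y axis) is drawn for probe sets above the median intensity, with colored bars for initiation factor genes and gray bars for all genes. The blue bar stands far above its gray neighbor for _s_at and _x_at names (76.6% against 29.1%) and little above it for other names (28.6% against 24.6%).

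The cap-binding complex and its inhibitors held the largest fall and the largest rise of all members, in a pair of related genes. EIF4EBP1 and EIF4EBP2 encode 4E-BP1 and 4E-BP2, which bind eIF4E and keep eIF4G away from it. EIF4EBP1 read 1969, 2325 and 1989 in monolayer and 912, 1010 and 979 in oncospheres. Every oncosphere array was well below every monolayer array, and the fall was 2.16-fold (log2 change -1.11, SE 0.08, adjusted p = 3.80e-05). EIF4EBP2 read 1107, 1026 and 1348 in monolayer and 1842, 1700 and 2170 in oncospheres. Here the groups were separated in the opposite direction, by 1.64-fold (log2 change 0.72, SE 0.12, adjusted p = 0.00268). EIF4EBP1 was read by a single probe set. Of the 5 probe sets of EIF4EBP2, 2 rose, both by 0.72, and the other 3 were not called (-0.12 to 0.11). EIF4ENIF1 encodes 4E-T, a partner that carries eIF4E into the nucleus, and its change of 0.16 was not called (95% interval -0.03 to 0.36).

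EIF4E encodes the cap-binding protein itself. It read 2328, 2138 and 1975 in monolayer and 1705, 1686 and 1637 in oncospheres, with no overlap. The log2 change was -0.35 (SE 0.07, adjusted p = 0.00630), and a dimmer probe set of the gene fell by 0.71, another had -0.24 without a call (adjusted p = 0.0847), and 2 near the median intensity had -0.06 and 0.11. EIF4E2, the related protein 4EHP that binds caps without recruiting eIF4G, gave mixed readings. Its brightest probe set had -0.25 (adjusted p = 0.112), the next brightest fell by 0.29, a plain _at probe set rose by 0.50, and the last had 0.09. EIF4E3 was of low intensity (126 to 172), with a log2 change of -0.15 (95% interval -0.39 to 0.08), and none of its other 3 probe sets was called (0.03 to 0.24).

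EIF4G1 is the main scaffold on which the complex is built. It read 1603, 1674 and 1698 in monolayer and 1007, 1131 and 1099 in oncospheres. The groups were clearly apart, at a fold of 1.54 lower (log2 change -0.62, SE 0.06, adjusted p = 0.000215), and the other probe set fell by 0.56. EIF4G2 encodes DAP5, a relative that lacks the eIF4E-binding part, and its arrays overlapped between the groups (log2 change -0.03, 95% interval -0.16 to 0.10). Both of its other probe sets were also uncalled (-0.09 and 0.15).

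The helicase group moved in both directions. EIF4B stimulates the helicase eIF4A and is a target of S6 kinase. It read 3290, 2878 and 3308 in monolayer and 4531, 4525 and 4468 in oncospheres, and every oncosphere array was higher. The rise was 1.43-fold (log2 change 0.52, SE 0.07, adjusted p = 0.000791), a second probe set rose by 0.25, and the third had 0.12 without a call. EIF4H, a smaller protein with the same helper function, fell by 0.24 on the log2 scale (adjusted p = 0.0134). EIF4A3 encodes a helicase of the exon junction complex and not of eIF4F. It read 4187, 3737 and 3578 in monolayer and 2869, 3074 and 2964 in oncospheres, all lower (log2 change -0.37, SE 0.07, adjusted p = 0.00586). EIF4A2, a helicase of eIF4F, was represented by 1 probe set below the median intensity on every array, so its log2 change of -0.11 is near the floor of the measurement. Brighter probe sets that list EIF4A2 among several symbols were not used, and the change of the gene is not settled here. EIF4A1 and EIF4G3 were not analysed here, because no probe set carried either symbol alone.

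**Figure D3:**
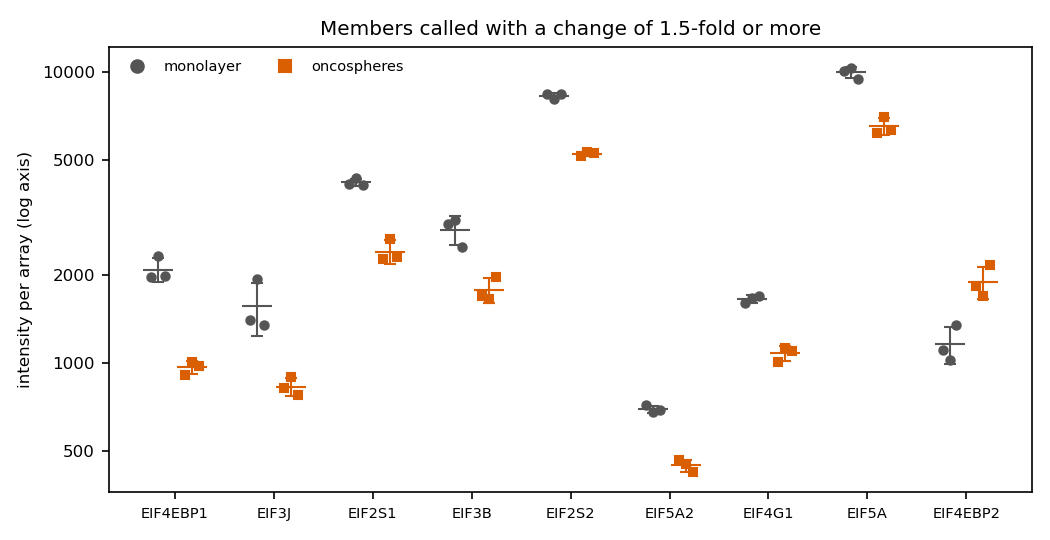
The intensity of each array (y axis, log scale) is shown for the 9 members called with a change of 1.5-fold or more, with circles for monolayer, squares for oncospheres, horizontal dashes for means and bars for SDs (n = 3). No gene has overlapping groups, and only EIF4EBP2 is higher in oncospheres.

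Within eIF2, the alpha and beta subunits fell while the gamma subunit was not called. EIF2S1 encodes eIF2 alpha, the subunit that stress kinases phosphorylate. It read 4132, 4319 and 4102 in monolayer and 2275, 2671 and 2306 in oncospheres. The separation was wide, a 1.74-fold fall (log2 change -0.80, SE 0.07, adjusted p = 0.000130), but 2 further, dimmer probe sets of the gene were not called (-0.10 and -0.14). EIF2S2, eIF2 beta, read 8386, 8094 and 8377 in monolayer and 5150, 5292 and 5283 in oncospheres. Replicates were tight and the groups far apart, at 1.58-fold lower (log2 change -0.66, SE 0.05, adjusted p = 6.09e-05), while a dimmer probe set had 0.04 without a call. EIF2S3, the gamma subunit that binds GTP and the tRNA, had a log2 change of -0.05 (95% interval -0.21 to 0.11), and its 3 probe sets were all uncalled. Beside eIF2, EIF2D, a factor that can deliver initiator tRNA without GTP, fell by 0.22 (adjusted p = 0.0266). EIF2A, an alternative carrier of initiator tRNA, had -0.21 with all oncosphere arrays below the monolayer arrays and was not called (adjusted p = 0.119).

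The exchange factor eIF2B had 3 of 5 subunits lower. The share of all genes called lower was 17.5%, or 27.5% once dim probe sets were left out. EIF2B3, the gamma subunit, read 897, 957 and 873 in monolayer and 640, 712 and 662 in oncospheres. The arrays did not overlap (log2 change -0.44, SE 0.07, adjusted p = 0.00148). EIF2B1, the alpha subunit, fell by 0.35 and EIF2B2, the beta subunit, by 0.34. The delta subunit EIF2B4 had -0.05 and the catalytic epsilon subunit EIF2B5 had -0.23, neither of them called, with 95% intervals of -0.17 to 0.07 and -0.51 to 0.05.

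Among the factors of start codon choice, EIF1AX and EIF1B fell with all arrays apart. EIF1AX encodes eIF1A, which stabilizes scanning. It read 2486, 2402 and 2318 in monolayer and 1752, 1685 and 1718 in oncospheres. No array overlapped (log2 change -0.48, SE 0.06, adjusted p = 0.000384), and 2 of its other 3 probe sets fell as well (-0.70 and -0.36), whereas the third had 0.14. EIF1B, a close relative of EIF1, fell by 0.29 (adjusted p = 0.00635). EIF5 encodes the factor that makes eIF2 hydrolyze its GTP, and its 5 probe sets disagreed. The brightest fell by 0.24 (adjusted p = 0.0374), 2 more fell by 0.49 and 0.45, 1 had -0.21 without a call, and a dimmer plain _at probe set rose by 0.44. EIF1, the gatekeeper of start codon choice, had -0.06 at its brightest probe set (95% interval -0.20 to 0.07). Of its other 6, 3 with _x_at names fell by 0.19 to 0.22, 1 rose by 0.63 at low intensity, and 2 had 0.22 and 0.60 without a call. EIF1AD, an eIF1A-like protein, read 833, 862 and 621 in monolayer and 844, 813 and 761 in oncospheres. Its groups overlapped (log2 change 0.08, 95% interval -0.20 to 0.36), and its dimmer probe set fell by 0.28.

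eIF3 is the largest factor, a scaffold that holds the small subunit together with eIF2, eIF4G and the messenger. Of its 13 measured subunit genes, 7 were called lower, 0 higher and 6 neither, with a median log2 change of -0.22. Of all genes 17.5% were called lower and 17.3% higher, and 27.5% and 26.9% once dim probe sets were left out. EIF3J, a loosely attached subunit that sits near the decoding site, read 1409, 1937 and 1351 in monolayer and 818, 894 and 776 in oncospheres. Replicate 2 was the highest monolayer array and the groups stayed apart, at 1.87-fold (log2 change -0.90, SE 0.13, adjusted p = 0.00133). Its second probe set fell by 0.82. EIF3B, part of the core that the other subunits assemble on, read 2999, 3107 and 2502 in monolayer and 1705, 1667 and 1980 in oncospheres. All oncosphere arrays were lower, by 1.61-fold (log2 change -0.68, SE 0.10, adjusted p = 0.00133). Its 3 brightest probe sets, all with _s_at or _x_at names, fell by 0.62 to 0.77, and 3 dimmer ones were not called (-0.25, 0.07 and 0.13).

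The other eIF3 subunits that fell were EIF3I (log2 change -0.53), EIF3M (-0.41), EIF3H (-0.38), EIF3K (-0.24) and EIF3F (-0.22). EIF3I belongs to the same core as EIF3B, and the remaining ones to the larger ring of subunits. A second EIF3M probe set fell by 0.34 and its 3 dim ones had -0.13 to 0.37 without a call. The 3 brighter EIF3K probe sets all fell, and the dim one left had -0.02. EIF3H had 1 bright probe set that fell and 1 dimmer that rose by 0.80 (adjusted p = 0.000247), the largest disagreement within a gene. EIF3F had a dimmer probe set at 0.08 without a call, and another below the median intensity that fell by 0.25. The subunits without a call were EIF3E (-0.13), EIF3A (-0.09), EIF3G (-0.06), EIF3L (0.07), EIF3D (0.08) and EIF3C (0.08). EIF3A, the largest scaffold subunit, had a second probe set that fell by 0.29. EIF3L was higher on all 3 oncosphere arrays, with an interval of -0.05 to 0.19. EIF3D, which can itself contact the cap, had overlapping arrays. EIF3C was read from a dim probe set only, at 81.8, 85.3 and 81.1 in monolayer and 81.5, 94.2 and 87.4 in oncospheres, and is not informative. Brighter probe sets that list it together with its near copy EIF3CL were not used, so that neither gene is settled here.

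The late factors all fell. EIF5B, the GTPase of subunit joining, read 2482, 2521 and 3004 in monolayer and 1952, 2028 and 1947 in oncospheres. The groups did not overlap (log2 change -0.43, SE 0.08, adjusted p = 0.00481), and each of its 6 probe sets was called lower, by 0.30 to 0.55. EIF6, which keeps the large subunit from joining too early, fell by 0.41 (adjusted p = 0.000865). EIF5A read 10090, 10308 and 9493 in monolayer and 6193, 7022 and 6324 in oncospheres. This abundant transcript was 1.53-fold lower (log2 change -0.61, SE 0.07, adjusted p = 0.000324), and its other probe sets fell by 0.57 and 0.75. EIF5A2, the second eIF5A gene, read 715, 678 and 687 in monolayer and 463, 449 and 422 in oncospheres. It was 1.56-fold lower (log2 change -0.64, SE 0.06, adjusted p = 0.000129), with its other probe sets falling by 0.39 and 0.88. EIF5AL1, a near copy of EIF5A, was not analysed here, and the signal of both copies may be shared on _x_at probe sets.

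Agreement of the probe sets thus differed between genes. Of 26 members with 2 or more probe sets above the median intensity, every such probe set was called lower in 6 (EIF3J, EIF3K, EIF4G1, EIF5A, EIF5A2 and EIF5B). In 4 (EIF1, EIF3H, EIF4E2 and EIF5) probe sets were called in both directions, in 11 some were called in 1 direction and some not, and in 5 none was called. Another 16 members had a single probe set. The noncoding RNAs were not called. EIF1B-AS1 read 130, 125 and 125 in monolayer and 119, 127 and 114 in oncospheres (log2 change -0.08), and EIF3J-DT read 256, 247 and 221 against 247, 284 and 243 (log2 change 0.10). EIF3J-DT starts beside EIF3J, which fell, and the difference between the changes of these neighbors was not tested.

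**Figure D4:**
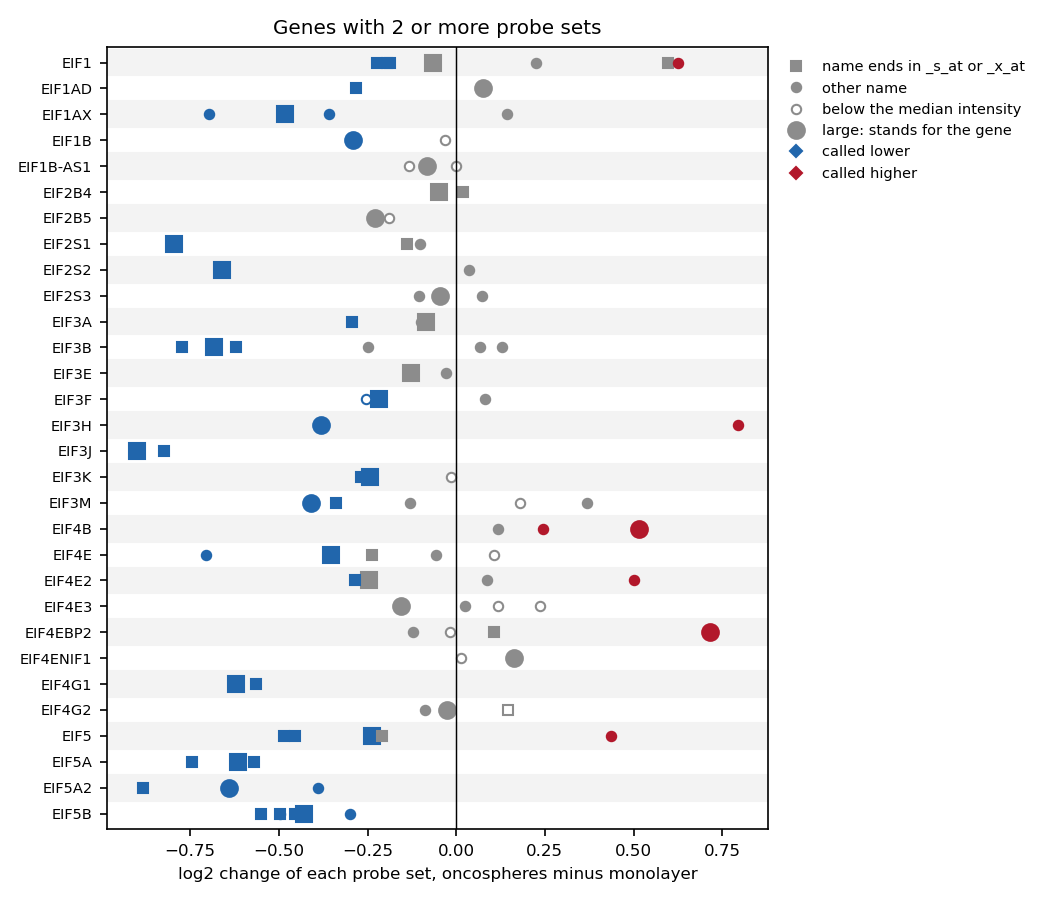
Each symbol is the log2 change of 1 probe set (x axis, oncospheres minus monolayer) in members with 2 or more, squares for _s_at or _x_at names, circles for others, open symbols below the median intensity and the large symbol for the probe set that stands for the gene. Red and blue stand for calls higher and lower, which meet within EIF1, EIF3H, EIF4E2 and EIF5, and the second red probe set of EIF4EBP2 lies under the large symbol.

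Promoter windows of the members were read because so many fell together. RefSeq windows of 300 bases, from 250 before to 50 after the start of the gene in GRCh38.p14, were at hand for 37 protein-coding members and for 15384 of all genes. The E-box CACGTG, which reads the same on both strands and is bound by MYC, MAX and related factors, was found in 10 members (27%) and in 10.9% of all genes. It was present in 9 of 22 members that fell, in 1 of 2 that rose and in 0 of 13 that were not called. The shares of all genes were not split by call for any motif, so such counts have no background beside them. The ETS core CCGGAAG, searched on both strands, was in 11 members (29.7%, against 16.6% of genes), of which 7 fell, and the box CCAAT in 17 (45.9%, against 41.7%). No test was made of these shares, and a match describes letters and not binding. The stretches around the E-boxes of 5 members are shown because they include the cap-binding protein, its scaffold, an elongation factor, a helicase and the 1 member with an E-box that rose, 5′ to 3′ on the strand of the gene, with the E-box in capitals.
EIF4E: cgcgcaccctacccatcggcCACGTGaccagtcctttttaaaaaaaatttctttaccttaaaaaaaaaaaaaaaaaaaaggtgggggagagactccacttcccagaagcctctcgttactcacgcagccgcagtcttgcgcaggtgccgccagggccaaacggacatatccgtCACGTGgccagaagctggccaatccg
EIF4G1: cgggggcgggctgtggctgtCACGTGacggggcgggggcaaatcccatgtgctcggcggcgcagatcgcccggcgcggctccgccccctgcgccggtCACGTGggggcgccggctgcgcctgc
EIF5A2: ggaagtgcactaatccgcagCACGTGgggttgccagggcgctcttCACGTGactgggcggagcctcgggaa
EIF4A3: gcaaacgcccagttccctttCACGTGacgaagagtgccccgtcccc
EIF4B: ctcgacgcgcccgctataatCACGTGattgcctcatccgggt
They lie upstream of the start at chr4:98929180-98929378 (minus strand), chr3:184314442-184314564 (plus), chr3:170908774-170908844 (minus), chr17:80147224-80147269 (minus) and chr12:53006414-53006455 (plus). EIF4E, EIF4G1 and EIF5A2 each hold 2 E-boxes, and the one nearest to the start begins 72, 67 and 162 bases before it. The single boxes of EIF4A3 and EIF4B begin 121 and 22 bases before the start. EIF1B, EIF2B3, EIF3F, EIF3K and EIF4H had 1 each.

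The other genes of the pathway, a list of 58 of which 54 were measured, moved in both directions. Each was read from its brightest probe set, and its other probe sets were not checked. Many of these had _s_at or _x_at names, among them those of MKNK2, DDIT4, RHEB, NCBP1, ABCE1 and GSPT1. Of the 54 genes, 23 were called lower, 8 higher and 23 neither, with a median log2 change of -0.12. Of all genes 17.5% were called lower and 17.3% higher, or 27.5% and 26.9% once dim probe sets were left out. The share of the 54 that fell was thus larger than in the background, and the share that rose was no larger. The list was chosen with earlier results of these data known. In groups as small as those that follow, counts of a few genes are descriptions only. Among kinases of eIF2 alpha, the endoplasmic reticulum kinase EIF2AK3 rose by 0.47 (adjusted p = 0.00116) and the heme-regulated kinase EIF2AK1 by 0.18, the amino acid sensor EIF2AK4 fell by 0.18, and the double-strand RNA kinase EIF2AK2 had 0.13 without a call. In the group of eIF2 alpha phosphatase and stress branch genes, 4 of 6 genes fell and 0 rose. PPP1R15A, the stress-induced subunit of the phosphatase (log2 change -1.05), and PPP1R15B, the constitutive subunit (-0.29), fell. So did DDIT3, the transcription factor CHOP (-0.73), and ATF4, the main effector of the response (-0.27). TRIB3 (0.12) and NCK1 (0.02) were not called.

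Of 15 genes that link mTORC1 and MNK kinases to eIF4F, 4 rose, 5 fell and 6 were not called, where 17.3% of all genes were called higher and 17.5% lower. The risers were led by MKNK2, a kinase of eIF4E (log2 change 1.10, SE 0.09), DDIT4, an inhibitor of mTORC1 (0.99, SE 0.05), and TSC1, another inhibitor (0.34). RHEB, the activator of mTORC1 (-0.40), MLST8, a subunit of it (-0.36), and SESN2, an amino acid-sensing inhibitor (-0.35), led the falls, and MTOR itself fell by 0.20. Of 9 measured partners of the poly(A) tail and cap, PAIP1, a stimulator of translation, rose by 0.57, and NCBP1, the nuclear cap-binding subunit, and PAIP2, an inhibitor of poly(A)-binding protein, fell by 0.59 and 0.40.

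Among the enzymes of polyamine and hypusine synthesis, which supply the modification of eIF5A, 4 of 5 genes fell and 0 rose (17.5% and 17.3% of all genes). ODC1, the first enzyme of polyamine synthesis, had the largest change of the list (log2 change -1.49, SE 0.07, adjusted p = 6.08e-06), followed by SRM, spermidine synthase (-0.82), and DOHH, which completes hypusine on eIF5A (-0.53). DHPS, which starts that modification, had 0.05 without a call. Of 7 other initiation and recycling factors, 5 fell, led by the ribosome recycling factor ABCE1 (-0.88), MCTS1, which acts with DENR in reinitiation (-0.66), and the mitochondrial factor MTIF2 (-0.39). Of 8 measured elongation and termination factors, the release factors GSPT1 (-0.88) and ETF1 (-0.64) fell, the related GSPT2 rose by 0.38, and the others were not called. The abundant elongation factors EEF1A1 (0.05) and EEF2 (0.03) were among the latter, with 95% intervals of -0.07 to 0.17 and -0.10 to 0.16.

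**Figure D5:**
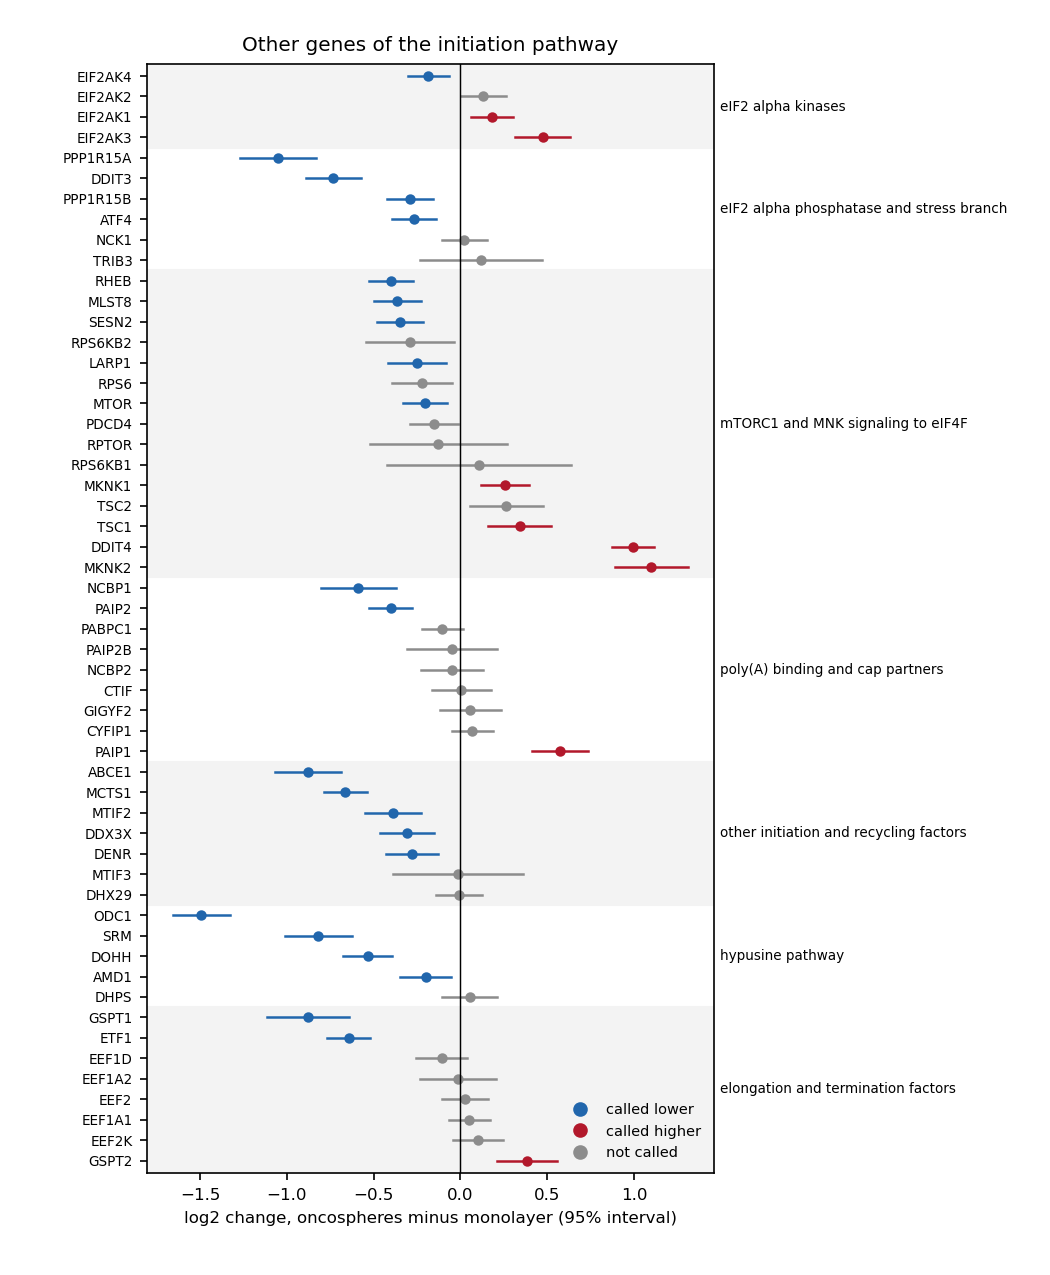
The log2 change of 54 other genes of the initiation pathway (x axis, oncospheres minus monolayer) is drawn by role, with points for the estimates and lines for 95% intervals from 3 arrays per group. ODC1 lies farthest to the left (-1.49) and MKNK2 farthest to the right (1.10).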

How the data were processed

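RNA from 6 cultures (100 ng total RNA each, 3 per group) was measured on Affymetrix U133 Plus 2.0 arrays, whose short probes lie mostly near the 3′ end of transcripts. The authors deposited 1 intensity for each probe set, normalized by robust multi-array averaging. The submitters' processing notes named affy, and a version was not given in the sources used here. The values were linear, where log2 values had been planned for, so log2 was taken first. Array medians lay between 112.6 and 114.1. An unstated offset or rescaling was not settled, so fold sizes are uncertain near the lowest intensities. No scan or batch was named, and the number of arrays limits precision.

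After removal of 62 control probe sets, 54613 were tested with limma 3.58.1 (R 4.3.3), with Benjamini-Hochberg adjustment over all of them. The call threshold was an adjusted p of 0.05, and a change of 1.5-fold marked larger changes. Symbols came from the platform annotation (41091 probe sets with 1 symbol, 1801 with several, 11721 with none), and all 47 members matched RefSeq by gene identifier. Another 10 probe sets named an EIF gene among several symbols and were not used. EIF2S3B, EIF3CL, EIF4A1, EIF4E1B, EIF4EBP3, EIF4G3 and EIF5AL1 were not analysed here.

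The fit was run on simulated arrays with normal noise and a small number of known changes. Those arrays held no probe sets that match several genes and no normalization shift, so they do not test such limits. The members, the role groups and the list of other pathway genes were chosen with earlier results of these data known. Every member was named, and array values were given for called changes of 1.5-fold or more and for the largest change in each direction of a role group. Of the other pathway genes, up to 3 called ones per direction and group were named. MTOR, EIF2AK2, DHPS, PPP1R15B, ATF4, TRIB3, NCK1, EEF1A1 and EEF2 were added after their values were seen where they fell outside that rule. Alternatives were 3 further normalizations, subtraction of the 5th percentile with a floor of 16, array weights, a trend and robust prior, a filter on dim probe sets, other choices of probe set, narrower adjustment, a stricter threshold, the replicate number as a block and each array left out. Promoter windows came from RefSeq (GRCh38.p14).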

Additional observations from a re-analysis of the deposited data

How the results depend on the processing

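Over 18 alternatives, 15 of the 27 called members kept their call and direction wherever they were measured. Leaving out _x_at and _s_at probe sets gave 13 members lower and 4 higher with a median log2 change of -0.073, fewer members being measured. It turned EIF2S2 to 0.035, EIF3B to 0.068, EIF3F to 0.082, EIF5 to 0.44 and EIF4E2 to 0.50, the last 2 called higher, and ended the calls of EIF2S1 (-0.10) and EIF3K (-0.02). Averaging all probe sets gave a median of -0.16 and turned EIF3H to 0.21, called higher (adjusted p = 0.0159, with a range of 0.000482 to 0.0159 over its alternatives in limma). It also ended the calls of EIF3F, EIF3M and EIF4EBP2 (0.28, adjusted p = 0.0608, with a range of 0.000385 to 0.0608 over its alternatives in limma). Cyclic loess gave a median of -0.16 with 19 members lower. The cause of these shifts was not tested, beyond the choice of probe set itself. With single arrays left out, 20 to 25 members were lower, 2 were higher, and the median lay between -0.26 and -0.21. The call of EIF5 was lost without any array except oncosphere 1, those of EIF2B2 and EIF2D without monolayer 1 or 2 or oncosphere 1 or 3, that of EIF3F without monolayer 1 or oncosphere 1 or 3, and that of EIF3K without monolayer 2 or 3 or oncosphere 1 or 3. EIF2B5 was called lower without monolayer 1 and when all probe sets were averaged. EIF4E2 was called lower without oncosphere 2 and with array weights. Background subtraction called EIF2B4 and EIF3E lower and EIF3L higher. Of 19 members with a level and no call in the main fit, 5 were thus called in 1 alternative or more. Same-numbered arrays deviated together only weakly (correlations 0.07, 0.08 and 0.09), although each correlated best with its own number. The replicate block gave 24 members lower and 2 higher, EIF5 losing its call (adjusted p = 0.0638, with a range of 0.00392 to 0.164 over its alternatives in limma). The dim probe sets that stand for EIF3C and EIF4A2 lie near the lowest intensities, so the lack of a call there does not show an unchanged gene.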
